A study of Mus musculus with 12 samples.

Results

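The comparison described here set splenic CD8a cells of S100a9 knockout mice that had gone through repeated social defeat stress against CD8a cells of knockout mice left unstressed. Its members are all 2023 genes that the authors listed for this comparison, of 3684 genes listed in any table of the series. The authors split splenocytes of each mouse into cell types and gave 1 average expression per gene, cell type and mouse. Controls (S100a9-/- C57Bl6/J, no stress) and stressed mice (the same genotype, repeated social defeat stress for 10 days, 1 day of behavioural testing) numbered 3 each, and spleens were taken on day 12. All 6 mice carry the S100a9-/- genotype, so the comparison is of stress against no stress within the knockout. Wild-type C57Bl6/J mice, 3 unstressed and 3 stressed in the same way, and the CD4 cells of the same 6 knockout mice served only to test whether a change differed. The labels state no age or sex. Erythrocytes were lysed before single cells were captured, and no sort for CD8a is stated.

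CD8 T cells recognise peptides on MHC class I molecules through a T cell receptor, with CD8 as co-receptor, and kill the cells that present them. In the resting spleen most are naive: they carry the transcription factors TCF-1 and LEF-1 and homing receptors such as CCR7, which take them to lymphoid tissue. Effector and memory cells instead hold cytotoxic granule proteins and chemokines such as CCL5, and receptors such as CXCR3 that take them to inflamed tissue. Repeated social defeat is a rodent model of psychosocial stress that raises glucocorticoid and adrenergic signals and mobilises myeloid cells. S100A9 forms calprotectin with S100A8, a protein abundant in neutrophils and monocytes and released in inflammation.

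Values are linear averages per mouse on a scale that appears to be 10000 per cell. The genes of the comparison summed to between 6531 and 6580 in the controls and between 7378 and 7411 in the stressed mice. The files give no cell numbers, read counts or depth, so no counting error can be given. S100a9 itself was in CD8a tables other than this one, at 0.0461, 0.0322 and 0.0307 in the controls and 0.0403, 0.00779 and 0.0337 in the stressed mice. Its level in unstressed wild-type CD8a cells was 0.0175 ± 0.015 (SD, n = 3), so at these low levels the transcript does not separate the genotypes. The labels do not say which part of the gene is deleted, so this transcript does not check the genotype. S100a8 stood at 0.0545, 0.0562 and 0.0107 in the controls and 0.0726, 0.0341 and 0.0429 in the stressed mice. Control mouse 1 and stressed mouse 1 stand apart in single gene groups, the first in interferon response genes and the second in effector, haemoglobin and glucocorticoid-linked genes.

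Stress came with a broad change of CD8a transcript levels. Of 2023 genes, 362 were called higher in stressed mice (17.9% of genes tested) and 448 lower (22.1%), with limma on log2(value + 0.1) and a Benjamini-Hochberg adjusted p under 0.05. The groups of mice did not overlap, with stress above, for 539 genes (26.6%) and, with stress below, for 448 (22.1%). The median log2 change of all 2023 genes was 0.11. From here on, a gene rose or fell where it was called, a value with ± is a log2 change with its SE over 3 mice against 3, and the 3 values of a group are mice 1, 2 and 3. Low genes depend on the constant added before the logarithm: with 1 in place of 0.1, the change of 54 of 124 called genes followed here was smaller by over 1.5 times, 53 of them at a mean level under 2, and none turned direction (0). Changes were not spread evenly: 347 genes lay below -0.6 on the log2 scale, 8 genes lay between -0.2 and -0.1, and 156 between -0.1 and 0. The 828 genes that the authors listed only for other CD8a comparisons include 299 below -0.6, 84 between -0.2 and -0.1, and none above 0.3. Genes outside the list were thus mostly lower or alike in the stressed mice, and the counts describe the listed genes only. With ribosomal protein and mitochondrially encoded genes set aside and the rest of the list scaled to a common total, 208 of 1932 genes were higher and 435 lower. With all remaining transcripts scaled to a common total, a choice made after seeing the data, 680 were higher and 422 lower, and the median change moved to 0.22. No gene was called in the opposite direction under either scaling (0 genes).

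**Figure D1:**
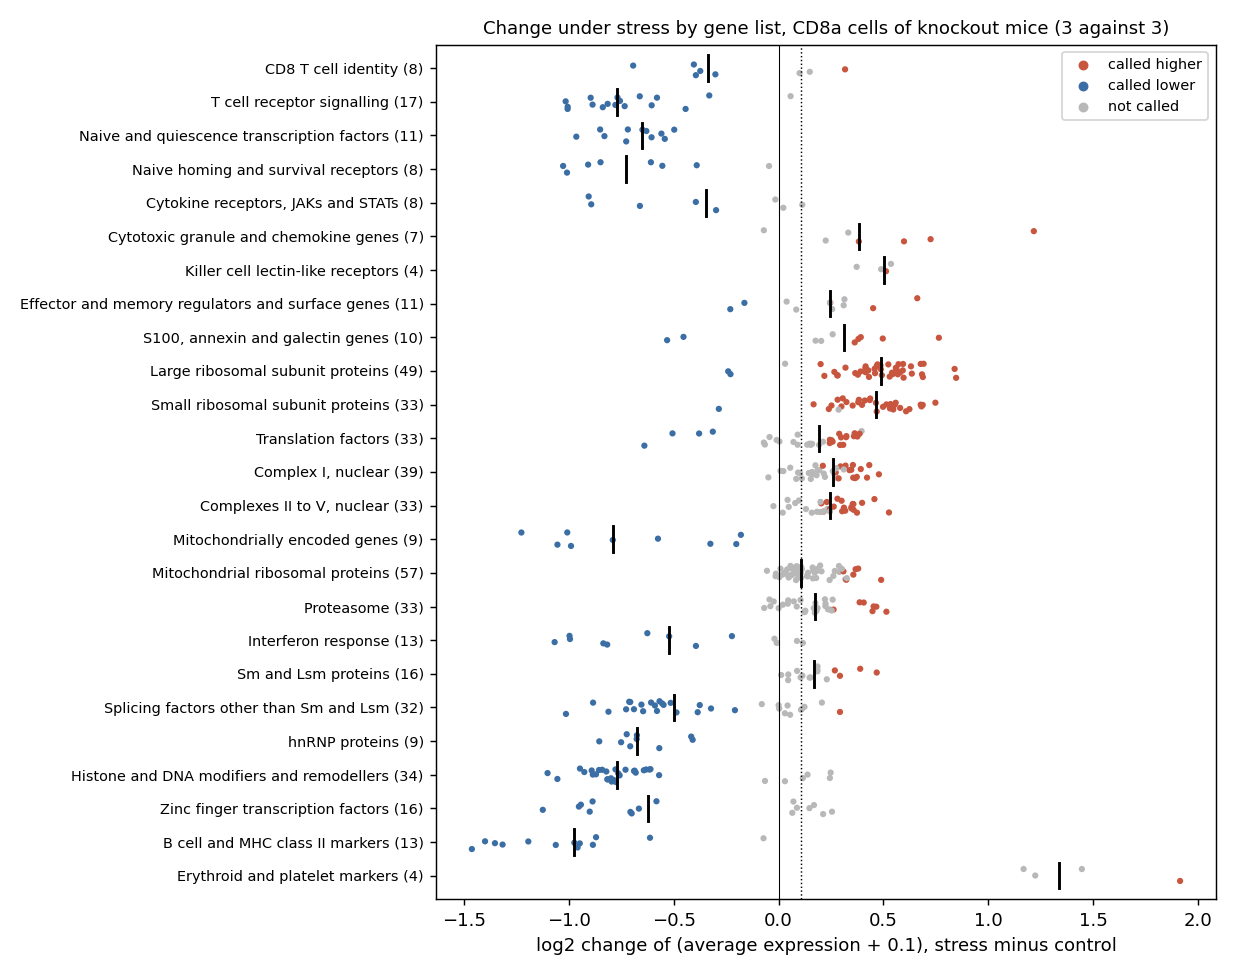
Each point is 1 gene of a list (rows, number of listed genes in brackets), placed at its log2 change of average expression + 0.1, stressed minus control knockout mice (x axis); red and blue points were called higher and lower, grey ones were not called. Black bars are list medians, and the dotted line is the median of all 2023 genes at 0.11. T cell receptor signalling genes, with a median of -0.77, lie to the left, and large ribosomal subunit genes, with a median of 0.49, to the right.

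The markers that define the cells were present in all 6 mice, and the co-receptor genes were lower after stress. Cd8a, the alpha chain of CD8, stood at 5.27, 4.87 and 4.35 in the controls and 3.69, 3.79 and 3.38 in the stressed mice. The groups did not overlap, and the log2 change was -0.40 ± 0.08 (adjusted p = 0.000595). Cd8b1, the beta chain, changed by -0.30 ± 0.08, a call that was lost with all remaining transcripts scaled to a common total (-0.15). Cd3d, a signalling chain of the T cell receptor complex, moved the other way, from 8.64, 8.28 and 7.77 in the controls to 10.3, 10.6 and 9.89 in the stressed mice (0.32 ± 0.06). Of 8 listed identity genes, 5 fell and 1 rose, with a median of -0.34, and 2 rose when control mouse 1 was left out. Besides the CD8 genes, Cd3e (-0.39 ± 0.07), Thy1 (-0.37 ± 0.07) and Bcl11b (-0.69 ± 0.07), a factor that holds T cell identity, fell. Trbc2, the constant segment of the receptor beta chain, was not called at 14.2, 13.9 and 13.1 in the controls and 15.8, 15 and 14.9 in the stressed mice, nor was Cd3g (0.10 ± 0.07). The summed level of 10 identity genes was 68.3 ± 3.3 in controls and 64.7 ± 2.79 in stressed mice (mean ± SD, n = 3 each, exact permutation p = 0.3).

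Genes listed under T cell receptor signalling, whether they carry or restrain the signal, fell almost without exception. Of 17 listed genes of T cell receptor signalling, 16 fell and none rose, with a median of -0.77. Malt1, a scaffold protease of the NF-kappaB branch, stood at 1.87, 1.93 and 1.99 in the controls and 0.804, 0.997 and 0.922 in the stressed mice. The stressed mice had less than any control, and the change was -1.02 ± 0.09 (adjusted p = 1.03e-06). Itpkb, an inositol trisphosphate kinase, fell from 2.06, 2.3 and 2.33 to 0.97, 1.23 and 0.99 (-1.01 ± 0.10). Itpr1 (-1.01 ± 0.12) and Itpr2 (-0.89 ± 0.09), calcium release channels of the endoplasmic reticulum, fell as well. So did Rasgrp1, which activates Ras below the receptor (-0.90 ± 0.09), and Themis (-0.84 ± 0.08), an adaptor of T cells. Ptprc, the phosphatase CD45, went from 17.1, 17.6 and 17.6 to 9.55, 11.3 and 10.1 (-0.76 ± 0.07). The smallest fall was that of Skap1, an adaptor of integrin activation (-0.33 ± 0.07). Orai1, the pore of the plasma membrane calcium channel, was the 1 gene not called (0.06 ± 0.13). The median longest transcript of the 17 genes is 5082 bases, against 1594.5 bases for all genes, and genes with longer transcripts fell more often throughout the table.

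The transcription factors of naive and quiescent T cells fell without an exception among the listed ones. All 11 listed factors were lower (median -0.65), and for each the groups did not overlap. Satb1, a chromatin organiser of T cells, stood at 6.38, 6.58 and 6.85 in the controls and 3.68, 3.59 and 3.73 in the stressed mice. Its 3 stressed values lie close together, and the change was -0.83 ± 0.06 (adjusted p = 3.04e-07). Tcf7, which encodes TCF-1, fell from 5.26, 5.55 and 5.61 to 3.59, 4.01 and 3.96 (-0.50 ± 0.07). Lef1, its partner, fell from 6.78, 7.02 and 6.64 to 4.81, 4.41 and 4.13 (-0.61 ± 0.07). Zeb1 fell by more on this scale (-0.96 ± 0.10), and by less than Satb1 with a pseudocount of 1 (-0.48 against -0.70). Foxp1 (-0.65 ± 0.07) and Foxo1 (-0.63 ± 0.08), both forkhead factors that keep naive cells quiescent, also fell. Ikaros family members Ikzf1 (-0.72 ± 0.07) and Ikzf3 (-0.85 ± 0.13) fell too, as did Ets1 (-0.56 ± 0.09), Klf3 (-0.73 ± 0.10) and Elf1 (-0.54 ± 0.08). The list holds 5 more genes that the authors gave only in other CD8a comparisons, and no test of these was made. Klf2, which drives homing receptor genes, stood at 7.89, 8.17 and 7.22 in the controls and 8.49, 8.01 and 8.2 in the stressed mice, and Btg1, an antiproliferative gene, at 8.1, 10.1 and 8.59 in the controls and 9.3, 7.75 and 8.16 in the stressed mice. For both the groups overlapped. Id3 stood at 0.958, 0.908 and 0.797 in the controls and 0.781, 0.907 and 0.855 in the stressed mice. Klf7, also a Kruppel-like factor, stood at 1.11, 1.08 and 1.01 in the controls and 0.561, 0.631 and 0.666 in the stressed mice, lower in every stressed mouse than in any control. Slfn2, a quiescence factor, stood at 3.13, 2.91 and 2.64 in the controls and 2.99, 2.61 and 2.62 in the stressed mice, again with overlap, as for Id3. The 11 listed factors have a median transcript length of 5163 bases.

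Most genes listed under homing and survival receptors of naive cells were lower as well, though not each is particular to naive cells. Of 8 listed genes, 7 fell (median -0.73), and their median transcript length is 4590 bases. Ccr9, the receptor for the gut chemokine CCL25, stood at 2.1, 2.59 and 1.76 in the controls and 1.34, 0.937 and 0.801 in the stressed mice, a change of -1.01 ± 0.15. Ccr7, the receptor for lymph node chemokines, stood at 2.31, 2.45 and 2.11 in the controls and 1.64, 1.35 and 1.42 in the stressed mice (-0.61 ± 0.09, adjusted p = 4.09e-05). Every stressed mouse was below every control for both. Il6ra, the interleukin-6 receptor, fell from 1.34, 1.37 and 1.3 to 0.648, 0.717 and 0.477 (-1.03 ± 0.12). Itga4 (-0.85 ± 0.09), an integrin chain, Treml2 (-0.91 ± 0.11) and S1pr1 (-0.39 ± 0.08), the receptor that lets cells leave lymphoid organs, fell too. S1pr4, another sphingosine-1-phosphate receptor, was not called (-0.05 ± 0.10). Il7r, the interleukin-7 receptor, is in the list but was given only in other comparisons, at 5.87, 7.42 and 7.86 in the controls and 5.58, 5.56 and 6.37 in the stressed mice. For Il7r the groups overlapped, and no test of it was made.

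Signalling chains shared by cytokine receptors fell together, while suppressors of cytokine signalling were not called. Of 8 listed genes, 5 fell and none rose (median -0.35). Il6st, the gp130 chain that signals for interleukin-6, stood at 1.78, 1.84 and 1.73 in the controls and 0.876, 0.847 and 0.997 in the stressed mice (-0.91 ± 0.09). Tgfbr2 (-0.66 ± 0.10), a receptor for TGF-beta, and Il2rg (-0.39 ± 0.07), the common gamma chain, fell by less. Jak1 fell by the least (-0.30 ± 0.07), and with all remaining transcripts scaled to a common total it was not called (-0.14). Socs1, Socs3 and Ifngr1 lay between -0.02 and 0.11 and were not called.

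Classical stress hormone targets showed no shared direction. Tsc22d3, which encodes the glucocorticoid-induced leucine zipper, stood at 0.935, 1.43 and 1.16 in the controls and 2.07, 0.768 and 1.28 in the stressed mice. Only stressed mouse 1 was above the controls, the groups overlapped, and the change was 0.13 ± 0.23. Without that mouse it was -0.20. Cxcr4, a chemokine receptor that glucocorticoids raise, followed the same mouse, at 0.324, 0.496 and 0.362 in the controls and 0.701, 0.274 and 0.396 in the stressed mice (0.12 ± 0.21, and -0.18 without stressed mouse 1). Creb1, a factor downstream of adrenergic cAMP signals, was the 1 gene called among 4, a share near the 22.1% of all genes that fell. It went from 1.35, 1.44 and 1.4 to 0.815, 0.74 and 0.841 (-0.74 ± 0.09). Of all genes, 22.1% fell and 17.9% rose. Among 6 immediate early and related genes, the mRNA decay factors Zfp36l1 (-0.67 ± 0.09) and Zfp36l2 (-0.58 ± 0.11) fell. Jund rose (0.25 ± 0.09), a call lost in 7 of 16 alternatives, among them those without control mouse 2 or 3 or stressed mouse 1 or 2. Ier2, Ier5 and Nfkbia were not called. Neither of the 2 listed checkpoint and costimulation genes, Cd160 (0.18 ± 0.11) and Tnfrsf18 (0.14 ± 0.11), was called.

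Some chemokine and granule genes of cytotoxic cells were higher. Of 7 listed genes, 4 rose and none fell, with a median of 0.38. Their median transcript length is 1241 bases, against 5163 bases for the naive transcription factors. What part length has in this contrast was not tested. Ccl5, a chemokine stored by memory and effector CD8 T cells, stood at 8.47, 10.1 and 14.8 in the controls and 16.3, 27.1 and 36.5 in the stressed mice. Every stressed mouse was above every control, the stressed mice differed among themselves by more than the controls did, and the change was 1.22 ± 0.22 (adjusted p = 0.000314). Nkg7, a protein of cytotoxic granules, stood at 6.38, 5.71 and 4.84 in the controls and 6.79, 7.69 and 7.58 in the stressed mice, again without overlap (0.38 ± 0.09). Gzmm, granzyme M, stood at 0.173, 0.0949 and 0.229 in the controls and 0.228, 0.358 and 0.303 in the stressed mice and the highest control was just above the lowest stressed mouse (0.60 ± 0.18). Xcl1, the chemokine that draws cross-presenting dendritic cells, stood at 0.248, 0.238 and 0.388 in the controls and 0.261, 0.845 and 0.66 in the stressed mice. Stressed mouse 1 was within the control range, and the change of 0.73 ± 0.26 (adjusted p = 0.0384) was called in 8 of 16 alternatives. Serpinb6b (0.33 ± 0.13), a granzyme inhibitor, Ctsw (0.22 ± 0.09), a protease of killer cells, and Lamp1 (-0.07 ± 0.11), a membrane protein of lytic granules, were not called. Without control mouse 2, 2 of the 7 were called, since Gzmm and Xcl1 were then not (the same held for Gzmm without stressed mouse 2, and for Xcl1 without control mouse 1, stressed mouse 2 or stressed mouse 3). The sum over 9 cytotoxic genes, including those listed elsewhere, was 21.1, 21.7 and 25.7 in controls and 29.0, 43.1 and 51.0 in stressed mice (exact permutation p = 0.1, the smallest that 3 against 3 mice allow). The stressed sum was 1.80 times the control sum, and 1.23 times with Ccl5 left out.

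**Figure D2:**
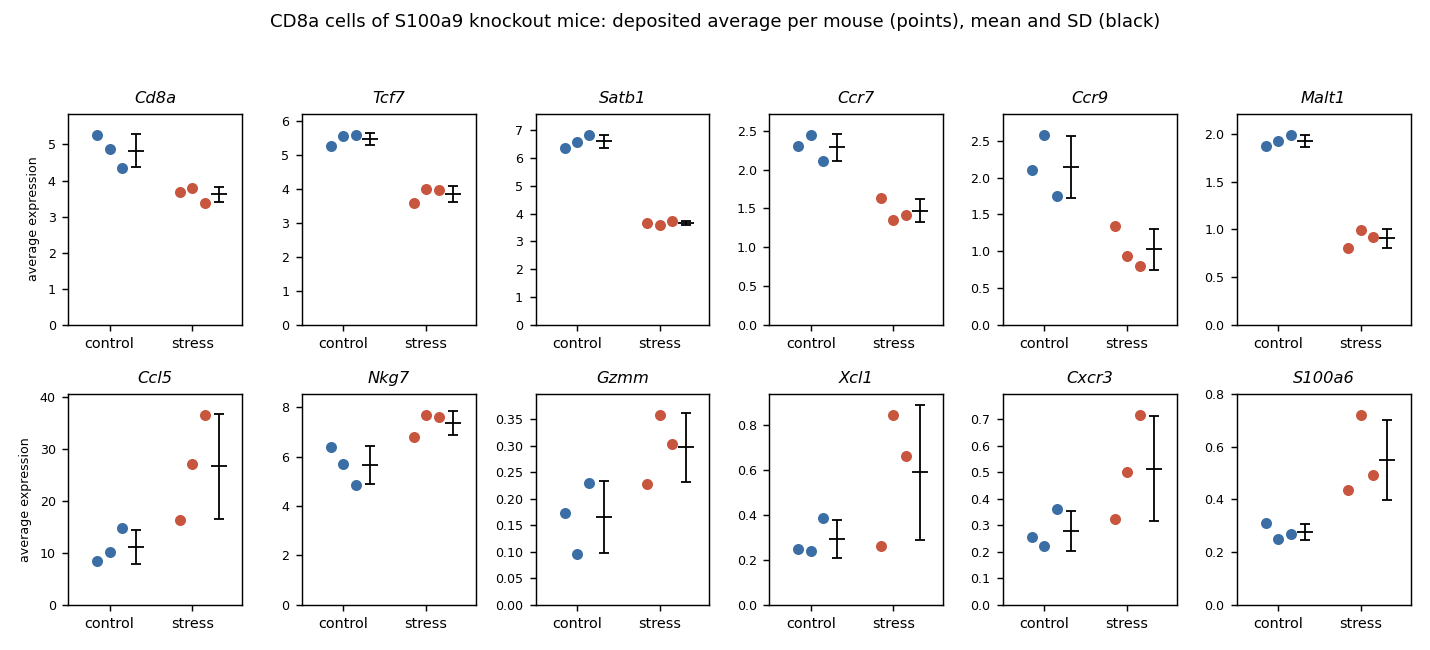
Average expression (y axis, linear, each panel starting at 0) of 12 genes in CD8a cells of the 3 control (blue) and 3 stressed (red) knockout mice, 1 point per mouse, with the mean ± SD in black. Cd8a, Tcf7, Satb1, Ccr7, Ccr9 and Malt1 have no stressed mouse within the control range, and for Ccl5 the stressed mice reach from 16.3 to 36.5 while controls reach from 8.47 to 14.8.

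Other genes of experienced T cells moved less evenly, and 1 mouse decided several calls. Cxcr3, a chemokine receptor of effector and memory cells, stood at 0.254, 0.22 and 0.363 in the controls and 0.324, 0.501 and 0.716 in the stressed mice (0.66 ± 0.20). The call was lost without control mouse 1, control mouse 2 or stressed mouse 3. Hopx, a regulator of effector cells, stood at 0.661, 0.598 and 0.68 in the controls and 0.67, 0.986 and 1.16 in the stressed mice (0.45 ± 0.15), and was not called without control mouse 1 or 2 or stressed mouse 2 or 3. Cd52, an abundant lymphocyte surface protein, rose by 0.25 ± 0.07, but not without stressed mouse 2. In all, 3 of 11 listed effector and memory genes rose and 2 fell (median 0.25), against 17.9% higher and 22.1% lower of all genes. The sum over 14 such genes, including those listed elsewhere, was 69.5 ± 3.08 in controls and 71.8 ± 3.76 in stressed mice (mean ± SD, exact permutation p = 0.5). The 2 that fell, Ms4a4b (-0.16 ± 0.06) and Ms4a6b (-0.23 ± 0.07), are membrane proteins of lymphocytes, and the first was not called without control mouse 1 or 3 or stressed mouse 1 or 2, nor the second without stressed mouse 2. The count of higher genes was 6 without stressed mouse 1, and 1 without control mouse 2, stressed mouse 2 or stressed mouse 3. Ly6c2, a memory-linked surface antigen, stood at 5.49, 4.15 and 5.34 in the controls and 4.48, 6.22 and 7.51 in the stressed mice and was not called, nor was the activation marker Cd44 (0.31 ± 0.19) or Ly6a (0.31 ± 0.24). Among 4 lectin-like receptors of killer cells 1 was called, near the share of all genes: Klrc1, the inhibitory NKG2A chain (0.51 ± 0.17). It stood at 0.137, 0.0961 and 0.189 in the controls and 0.16, 0.261 and 0.316 in the stressed mice. Klre1 (0.54 ± 0.22), Klra7 (0.49 ± 0.24) and Klra1 (0.37 ± 0.22) had similar changes without a call. Without stressed mouse 1 all 4 were called, and without control mouse 3 it was 3. Without any 1 of the other mice (control mouse 1 or 2, stressed mouse 2 or 3) none was called (0). Klrd1, the highest gene of this list, was given only in other comparisons. The sum over 5 receptors with Klrd1 was 3.11, 2.76 and 3.49 in controls and 2.93, 4.30 and 4.03 in stressed mice (exact permutation p = 0.3). The stressed sum was 1.20 times the control sum, and 1.65 times with Klrd1 left out.

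Calcium-binding S100 proteins and their relatives, linked to migration and memory, rose in part. Of 10 listed genes, 5 rose and 2 fell (median 0.31). S100a6 stood at 0.311, 0.249 and 0.269 in the controls and 0.435, 0.721 and 0.492 in the stressed mice, without overlap (0.76 ± 0.15, adjusted p = 0.000563). S100a13 (0.50 ± 0.10) and S100a10 (0.36 ± 0.07), the partner of annexin A2, rose, as did Lgals1 (0.38 ± 0.09), a galectin, and Crip1 (0.39 ± 0.08), a LIM protein. Anxa6 (-0.53 ± 0.11), a membrane-binding annexin, and Lsp1 (-0.45 ± 0.07), an actin-binding leukocyte protein, fell. S100a11 (0.18 ± 0.09), Anxa2 (0.26 ± 0.17) and Emp3 (0.20 ± 0.09) were not called.

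Ribosomal protein genes rose nearly throughout. Of 49 listed genes of the large subunit, 46 rose and 2 fell (median 0.49), and of 33 of the small subunit 31 rose and 1 fell (median 0.46). Rpl24 stood at 3.5, 4.15 and 3.01 in the controls and 6.63, 6.09 and 6.43 in the stressed mice. The stressed mice were all above the controls, and the change was 0.84 ± 0.09 (adjusted p = 3.90e-06). Rps6, the ribosomal target of S6 kinase, stood at 7.71, 5.14 and 6.68 in the controls and 11.5, 10.9 and 10.1 in the stressed mice (0.75 ± 0.11). Rps27 went from 39.1, 44.9 and 41.3 to 67.3, 65.2 and 67.9 (0.68 ± 0.07) and Rpl18 from 20.2, 20.2 and 18.8 to 32.1, 31.2 and 31.5 (0.68 ± 0.06). Fau, which encodes a small subunit protein fused to a ubiquitin-like peptide, changed by 0.56 ± 0.06. Those that fell include Rpl23a (-0.24 ± 0.09) and Rpl31 (-0.23 ± 0.08). The calls for Rpl23a and Rpl31 are weak: both were lost without control mouse 2, stressed mouse 2 or stressed mouse 3, that of Rpl31 also without control mouse 1, and that of Rpl23a also without stressed mouse 1 or with a pseudocount of 1. The summed ribosomal protein level, over every gene of both lists in any CD8a table, was between 2288 and 2461 in controls and between 3194 and 3294 in stressed mice. Of 40 ribosomal protein pseudogenes, a list chosen after the data were seen, 28 rose and none fell (median 0.51). They share sequence with the ribosomal protein genes, so reads may be split among them. Rpsa-ps10 led them (1.01 ± 0.10), with others such as Rps27a-ps3 (0.80 ± 0.13), Rpl10a-ps1 (0.77 ± 0.12), Rps10-ps1 (0.75 ± 0.09) and Rps23-ps1 (0.73 ± 0.12).

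Ribosomal protein transcripts are known for a terminal oligopyrimidine (TOP) motif at their 5′ end, through which mTOR signalling controls their translation. The windows below, from RefSeq (GRCm38.p6), run from 10 bases before to 20 bases from the annotated start, 5′ to 3′, and are shown because this gene group rose together. Capitals mark the motif as searched: a C followed by at least 4 bases that are each C or T, on the sense strand, beginning within 10 bases of the start. Where a window holds more than 1 such stretch, as those of Rps27 and Fau do, the longest is marked.
Rps6: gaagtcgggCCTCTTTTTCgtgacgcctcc
Rps27: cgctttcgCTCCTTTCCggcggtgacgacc
Fau: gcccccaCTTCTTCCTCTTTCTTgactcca
Rpl18: ctcgcaggccgCTCTTTCCCCgcccactcc
Gas5: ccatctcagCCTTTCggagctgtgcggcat
Snhg8: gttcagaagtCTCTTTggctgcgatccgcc
They lie at chr4:86857348-86857377 (minus strand), chr3:90213629-90213658 (minus strand), chr19:6057937-6057966 (plus strand), chr7:45718061-45718090 (plus strand), chr1:161035156-161035185 (plus strand) and chr3:123508317-123508346 (minus strand), each at the start of the named gene. Gas5 and Snhg8 are noncoding host transcripts of small nucleolar RNAs, and both rose (0.39 ± 0.07 and 0.25 ± 0.08, the latter lost without control mouse 3, stressed mouse 2 or stressed mouse 3). A match was found for 21 of 35 large subunit genes with a promoter entry (60%) and for 16 of 24 small subunit genes (66.7%). It was found for 34.4% of all 27025 genes searched and for 37.7% of the genes of the comparison with an entry. Among genes called higher the share was 47.1%, and among those called lower 38.4%. Rpl31, which fell, holds the motif too.

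Translation factors moved both ways. Of 33 listed, 14 rose and 4 fell (median 0.19). Naca (0.39 ± 0.07), which binds nascent chains at the ribosome, and Eef1d (0.38 ± 0.08), a subunit of the elongation factor 1 exchange complex, rose. So did Eif3e, Eif3f, Eif3g, Eif3h, Eif3k and Eif3m of initiation factor 3, by 0.25 to 0.36. The scaffold of the same factor, Eif3a, fell from 3.61, 3.64 and 3.95 to 2.32, 2.31 and 2.44 (-0.64 ± 0.07). Pabpc1, which binds the poly(A) tail (-0.51 ± 0.06), Eif4g2 (-0.38 ± 0.07) and Eef2 (-0.31 ± 0.06), the translocation factor, were the others that fell.

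Listed nuclear and mitochondrial genes of the respiratory chain moved in opposite directions. Of 39 listed nuclear genes of complex I 17 rose, and of 33 of complexes II to V 19 rose, with none lower (medians 0.26 and 0.25). Ndufb7, an accessory subunit of complex I, went from 1.53, 1.52 and 1.35 to 2.04, 2.05 and 1.94 (0.43 ± 0.08). Ndufa12 rose as well (0.48 ± 0.14, and 0.17 with a pseudocount of 1), but was not called without control mouse 1. Cox5b, of cytochrome c oxidase, went from 1.66, 1.67 and 1.34 to 2.36, 2.45 and 2.05 (0.53 ± 0.10), and Atp5e, of ATP synthase, from 4.66, 4.87 and 4.16 to 6.48, 6.03 and 6.36 (0.46 ± 0.07). These counts rest in part on control mouse 3: without it, 9 complex I and 11 other genes were called. They also move with scaling, to 32 and 29 with all remaining transcripts scaled to a common total. All 9 listed mitochondrially encoded genes fell (median -0.79). The authors gave others only in other CD8a comparisons. Among them is mt-Nd3, whose change was -0.02, without a test within the knockout. mt-Co1, the catalytic subunit of cytochrome c oxidase, stood at 13.5, 13.3 and 13.6 in the controls and 6.2, 7.02 and 6.99 in the stressed mice (-0.99 ± 0.07, adjusted p = 2.10e-07). mt-Nd6, the 1 listed gene on the light strand, fell from 0.804, 0.634 and 0.634 to 0.232, 0.203 and 0.279 (-1.23 ± 0.13). With a pseudocount of 1 its change was -0.45, less than that of mt-Co1 (-0.90), and with 0.01 it was -1.50. mt-Atp8 (-1.05 ± 0.09) and mt-Nd5 (-1.01 ± 0.08) fell about as far as mt-Co1. mt-Nd4 (-0.79 ± 0.06), mt-Nd2 (-0.57 ± 0.07) and mt-Nd1 (-0.33 ± 0.07) fell by less. mt-Cytb (-0.20 ± 0.06) and the large ribosomal RNA mt-Rnr2 (-0.18 ± 0.07) fell least, and the call for mt-Cytb was lost without stressed mouse 2 or 3. Of 57 mitochondrial ribosomal protein genes, 6 rose, a smaller share than the 17.9% of all genes, and none fell (median 0.11). Without control mouse 3, 2 rose.

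Long RNAs kept in the nucleus fell sharply. Kcnq1ot1, the antisense transcript that silences an imprinted domain, stood at 5.73, 5.41 and 5.53 in the controls and 1.92, 1.9 and 1.72 in the stressed mice. Its change of -1.54 ± 0.07 (adjusted p = 4.59e-09) is the largest fall among named genes at or above the median level. Malat1, the abundant RNA of nuclear speckles, stood at 177, 179.7 and 176 in the controls and 128, 124 and 121 in the stressed mice (-0.51 ± 0.06). Neat1, the core of paraspeckles, went from 1.76, 2.01 and 1.88 to 0.825, 1.04 and 0.945 (-0.94 ± 0.10). Of 11 listed long noncoding RNAs, these 3 fell and 3 rose, against 22.1% lower and 17.9% higher of all genes. The third riser was Epb41l4aos (0.33 ± 0.12), and without control mouse 3 or stressed mouse 3 there was 1 call higher. Kcnq1ot1 overlaps Kcnq1, and how reads were assigned by strand is not stated.

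Most chromatin regulators fell. Of 34 listed histone and DNA modifiers and remodellers, 28 fell and none rose (median -0.77). Ash1l, a histone H3 methyltransferase, stood at 1.82, 1.84 and 1.95 in the controls and 0.803, 0.813 and 0.841 in the stressed mice (-1.10 ± 0.08, adjusted p = 2.91e-07). Tet3, which oxidises methylated cytosine, stood at 1.55, 1.56 and 1.54 in the controls and 0.692, 0.683 and 0.71 in the stressed mice (-1.05 ± 0.09). The mice within each group differed little for both, and the groups lay far apart. Kmt2a, the MLL1 methyltransferase, went from 3.58, 3.83 and 3.45 to 1.77, 1.85 and 1.95 (-0.93 ± 0.08). The median transcript length of these 34 genes is 8543.5 bases. Of 16 zinc finger factors, 9 fell and none rose (median -0.62), led by Zbtb20 (-1.12 ± 0.10), a repressor of the BTB family. Outside these lists, large falls were those of Pcf11 (-1.10 ± 0.12), which ends transcription, and Rif1 (-1.04 ± 0.09), which times DNA replication.

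Many splicing factors fell. Of 9 hnRNP genes, all fell (median -0.68), from Pcbp2 (-0.41 ± 0.08) to Hnrnpr, which went from 2.13, 2.1 and 2.17 to 1.04, 1.18 and 1.2 (-0.85 ± 0.08). Of 32 other splicing factors, 21 fell and 1 rose, U2af1 (0.29 ± 0.10), a call lost without control mouse 2 or 3 or stressed mouse 2 or 3 (median -0.50). Prpf38b, a spliceosome activation factor, fell most (-1.01 ± 0.09), and Srrm2, a scaffold of nuclear speckles, stood at 6.92, 6.88 and 6.93 in the controls and 3.98, 4.19 and 4.43 in the stressed mice (-0.71 ± 0.07). The small Sm and Lsm proteins that form the ring around spliceosomal RNAs had no member that fell. Among these 16 genes 4 rose (median 0.17), a share near the 17.9% of all genes, with Snrpd2 (0.47 ± 0.09) and Snrpe (0.39 ± 0.08) in front. Of these 4, 2 were called without control mouse 3 or without stressed mouse 1.

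Genes of the interferon response were lower in stressed mice, and control mouse 1 was high for many of them. Of 13 listed, 9 fell and none rose (median -0.52), and without control mouse 1 it was also 9. Slfn8, of the Schlafen family, stood at 1.45, 1.02 and 1.08 in the controls and 0.569, 0.519 and 0.525 in the stressed mice (-1.0 ± 0.12). Rnf213, a large ubiquitin ligase, stood at 1.71, 1.21 and 0.962 in the controls and 0.532, 0.636 and 0.583 in the stressed mice (-0.99 ± 0.15). In both, control mouse 1 is the highest mouse, and the other 2 controls are still above all stressed mice. Gvin3, an interferon-inducible GTPase, fell without that pattern, from 3.48, 3.44 and 3.74 to 1.57, 1.6 and 1.75 (-1.07 ± 0.08). The related pseudogene Gvin-ps6 changed by -1.16 ± 0.09, and reads of the family may be shared. Ifi214 (-0.84 ± 0.13) and Ifi213 (-0.82 ± 0.11), of the DNA-sensing HIN-200 cluster, fell as well. Ifit1, given only in other comparisons, stood at 1.08, 0.27 and 0.29 in the controls and 0.342, 0.307 and 0.198 in the stressed mice, where control mouse 1 alone is apart. Over 27 interferon genes in any CD8a table, sums were 62.1, 47.7 and 46.1 in controls and 40.4, 37.3 and 37.9 in stressed mice (exact permutation p = 0.1). The interferon-stimulated response element holds a repeat of GAAA that STAT and IRF factors bind. The 40 bases of the Slfn8 promoter that hold GAAA, any 2 bases and GAAA, here read on the opposite strand and in capitals, are shown for its large fall and come from RefSeq (GRCm38.p6), chr11:83020831-83020870 (minus strand), from 60 to 21 bases before the start.
Slfn8: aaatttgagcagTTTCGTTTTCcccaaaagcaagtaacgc
Searched on both strands of the 300 bases around the start, GAAA repeated after any 2 bases was found in 7 of 12 listed interferon genes with an entry (58.3%). The share was 3.99% of all genes searched, 4.37% of genes of the comparison with an entry and 5.81% of those called lower. The 7 were Bst2, Ifi203, Ifi213, Ifi214, Phf11b, Shisa5 and Slfn8, of which Bst2 and Phf11b were not called.

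Genes of the actin cytoskeleton moved both ways, and proteasome genes rose about as often as all genes. Of 19 actin genes, 8 fell and 4 rose (median 0.13), or 7 rose with control mouse 1 left out. Of all genes, 22.1% fell and 17.9% rose. Macf1 (-0.93 ± 0.06), a giant crosslinker, and Myh9 (-0.89 ± 0.06), the non-muscle myosin heavy chain, fell, while Tmsb10, which binds actin monomers, went from 20.5, 19.9 and 19 to 32.4, 29.6 and 29.2 (0.61 ± 0.06) and Myl6, a myosin light chain, rose by 0.38 ± 0.07. Myl12b, another light chain, rose as well (0.38 ± 0.09). Of 33 proteasome genes, 7 rose, a share near the 17.9% of all genes, and none fell (median 0.18). Among the 7 were the catalytic subunits Psmb5 (0.51 ± 0.12) and Psmb1 (0.45 ± 0.08). Without control mouse 1, 12 rose. Ubb, a ubiquitin gene, stood at 2.29, 1.75 and 2.1 in the controls and 4.16, 3.33 and 3.32 in the stressed mice (0.79 ± 0.10). Of 4 genes of MHC class I presentation 1 fell, near the 22.1% of all genes: B2m (-0.21 ± 0.06), a call lost without stressed mouse 2 or 3. H2-D1 (0.12 ± 0.07), H2-T22 (-0.01 ± 0.09) and H2-T23 (0.21 ± 0.09) were not called.

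Transcript length, which no list used, ran through the table. Of the 2023 genes, 1972 had 1 entry in GENCODE M21, and their longest transcript was taken. Among 103 genes under 500 bases, 56.3% rose and 3.88% fell. Among 698 genes of 1000 to 2000 bases, 15.3% rose and 6.02% fell. Among 244 genes of 4000 to 8000 bases, 3.28% rose and 69.7% fell. Among 126 genes of 8000 bases or more, none rose and 97.6% fell, leaving 3 genes, Agpat5, Fam53a and Glo1, not called. Protein-coding genes without ribosomal protein and mitochondrial genes gave 97.6% lower among 124 genes of that length and 30.0% higher among 287 of 500 to 1000 bases. The listed mitochondrially encoded genes are short and fell, as did short B2m and Igkc. Naca, with a long annotated transcript, rose. The lists above differ in length in the same sense, with medians of 906 bases for large ribosomal subunit genes and 8543.5 bases for chromatin regulators. What part length has in a list's count was not tested. Of genes in the annotation class TEC, predicted transcripts that await experimental proof, 33 were lower, 1 was higher and 2 were not called, while processed pseudogenes were higher in 50 and lower in 2 of 97.

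**Figure D3:**
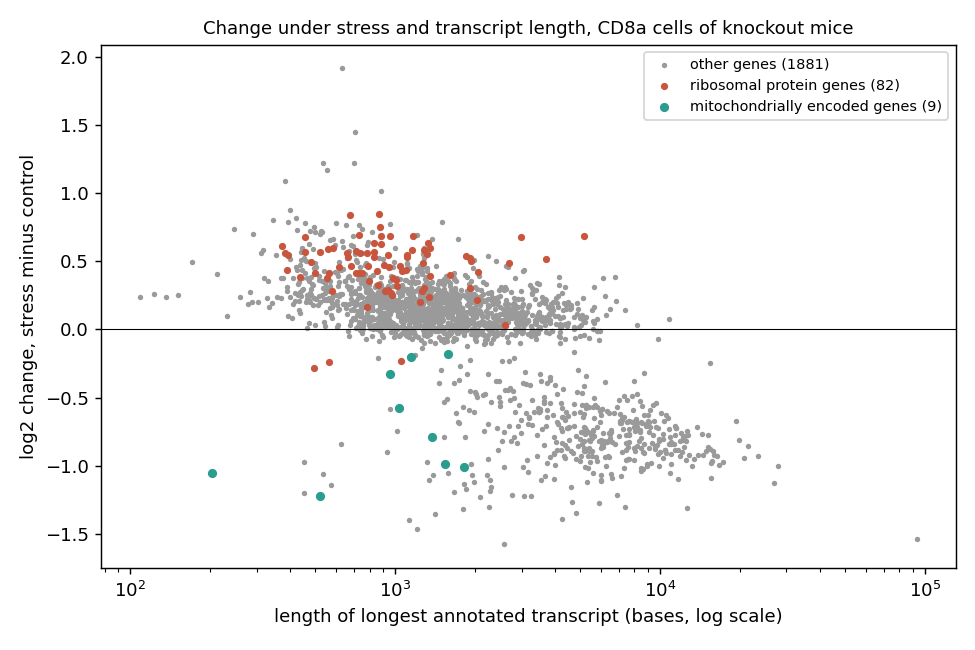
Each point is 1 of 1972 genes, at the length of its longest annotated transcript (x axis, log scale, bases) and its log2 change, stressed minus control (y axis). Ribosomal protein genes are red and the 9 mitochondrially encoded genes green; points at 8000 bases or more lie almost all below 0, with a median of -0.82.

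Markers of other spleen cells were present in the CD8a averages, and those of B cells were lower after stress. In the controls, Igkc and Cd74, among others, stood above 0.683, the median level of the comparison's genes. Ighm had the highest level of the B cell list and changed by -0.61. Of 13 B cell and MHC class II genes, 12 fell and none rose (median -0.97). With the lowest 25% of genes left out of the test, 6 of the list fell. Cd74, the invariant chain, stood at 1.67, 1.67 and 2.5 in the controls and 0.90, 0.549 and 0.655 in the stressed mice (-1.35 ± 0.16). H2-Ab1 stood at 0.677, 0.667 and 0.946 in the controls and 0.209, 0.172 and 0.254 in the stressed mice (-1.46 ± 0.14, adjusted p = 1.52e-06), and H2-Aa (-1.40 ± 0.16) and H2-Eb1 (-1.19 ± 0.15) fell with it. With a pseudocount of 1 these 3 changes were -0.54, -0.53 and -0.37. H2-DMa was the exception (-0.07 ± 0.11). Igkc, the kappa light chain constant segment, stood at 3.05, 2.38 and 2.88 in the controls and 0.921, 1.22 and 1.79 in the stressed mice (-1.06 ± 0.16). Pax5, the factor that holds B cell identity, stood at 0.0861, 0.0857 and 0.216 in the controls and 0.0396, 0 and 0.00652 in the stressed mice, near 0 in the stressed mice. The summed level of the 13 genes was 12.1, 11.6 and 15.4 in controls and 6.12, 5.85 and 7.0 in stressed mice (exact permutation p = 0.1). From averages, fewer cells of a type among those assigned to CD8a, less RNA per cell and other sources of these transcripts cannot be told apart. How doublets were treated is not given. MHC class II promoters share a Y box, CTGATTGG, bound by NF-Y. The 80 bases from 120 to 41 bases before the start are shown for the 2 class II genes with a promoter entry that fell, with that box in capitals (RefSeq, GRCm38.p6, chr17:34287864-34287943 (minus strand) and chr17:34305747-34305826 (plus strand)).
H2-Aa: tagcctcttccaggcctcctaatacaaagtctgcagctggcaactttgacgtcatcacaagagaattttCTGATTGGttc
H2-Eb1: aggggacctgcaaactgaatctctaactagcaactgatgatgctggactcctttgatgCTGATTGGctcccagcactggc
On either strand of the 300 bases, CTGATTGG was found in 3 of 6 genes of this list with an entry, the third being Fcer2a. The share was 4.7% of all genes searched and 6.38% of genes of the comparison with an entry.

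The globin gene Hbb-bs and 2 of 4 natural killer markers rose, the globin in single mice. Hbb-bs, adult beta globin, stood at 1.31, 1.15 and 0.188 in the controls and 8.53, 0.886 and 3.09 in the stressed mice. Stressed mice 1 and 3 were above the controls and stressed mouse 2 within their range, and the change was 1.91 ± 0.62 (adjusted p = 0.0218). It was not called without control mouse 3, stressed mouse 1 or stressed mouse 3, and 4 globin genes were called without stressed mouse 2. Sums of 5 erythroid and platelet markers were 2.81, 2.42 and 0.357 in controls and 16, 1.39 and 5.69 in stressed mice (exact permutation p = 0.3). Natural killer markers listed here are Ccl5, Nkg7, Klre1 and Klra7, all of which CD8 T cells also express, with sums of 17.3 ± 2.68 and 34.9 ± 10.8 (exact permutation p = 0.1). The stressed sum was 2.02 times the control sum, and 1.33 times with Ccl5 left out. Of the 4, 2 rose, or 4 without control mouse 3 or stressed mouse 1. The defining natural killer genes Ncr1 and Klrb1c were not listed for CD8a cells. Sums of 5 neutrophil markers were between 0.0768 and 0.302 in all 6 mice, and Camp was called (0.37 ± 0.11, lost without control mouse 3), while 2 were called without control mouse 1. Sums of 4 monocyte and dendritic markers were 2.24 ± 0.139 and 1.87 ± 0.170 (exact permutation p = 0.1), and Cst3 was not called (0.05 ± 0.11). No CD8a table lists a gene of the CD4 and regulatory T cell list, or of the gamma delta T cell and plasma cell list. What part these cells have in the changes of other genes was not tested.

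**Figure D4:**
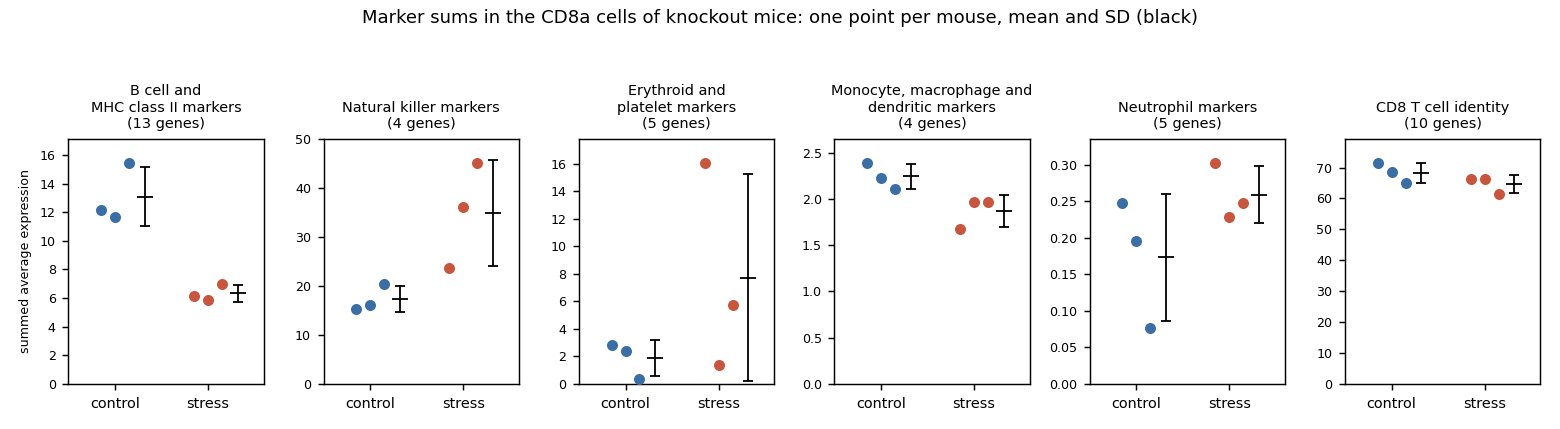
Summed average expression (y axis, linear from 0, own scale per panel) of marker lists in the CD8a averages of the 3 control (blue) and 3 stressed (red) knockout mice, with the mean ± SD in black. B cell markers fall from between 11.6 and 15.4 to between 5.85 and 7.0, the erythroid sum is spread from 1.39 to 16 among stressed mice, and the CD8 identity sums of both groups overlap.

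No difference between the genotypes in the change under stress was called. The interaction term called none of 2851 genes (0%, 204 at an unadjusted p under 0.05, limma). Of the 362 genes higher in the knockout, 357 were higher in wild type too, and all 448 lower genes were lower. Medians of the genes called higher were 0.39 in both genotypes, and those of the genes called lower were -0.78 in both. Because the genes were chosen in the knockout, these medians describe them and are no test. Medians of some lists lay further apart, with B cell and MHC class II genes at -0.97 in the knockout and -0.63 in wild type, erythroid and platelet genes at 1.34 and 0.40, and chaperones at 0.11 and 0.35. Ccl5 changed by 1.22 in the knockout and 1.20 in wild type (difference 0.02 ± 0.33), Satb1 by -0.83 and -0.84, and mt-Co1 by -0.99 and -1.04 (differences 0.01 ± 0.11 and 0.05 ± 0.10). H2-Ab1 differed more, with -1.46 and -0.78, a difference of -0.68 ± 0.39 (adjusted p = 0.707). The smallest p belonged to Coro2a, a coronin, at -0.80 in the knockout and 0.39 in wild type (difference -1.18 ± 0.22, adjusted p = 0.129). It was called without stressed mouse 2. Next came 1110065P20Rik (-0.23 in the knockout and 0.59 in wild type) and mt-Nd3 (-0.02 and -0.94). Ung, a uracil DNA glycosylase (-0.52 and 0.33), and Rpl36-ps12 (0.28 and -0.33) followed. Their differences were, in this order, -0.82 ± 0.17, 0.92 ± 0.20, -0.84 ± 0.19 and 0.62 ± 0.15, with adjusted p from 0.17 to 0.36. A p above the threshold does not show that the genotypes respond alike.

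**Figure D5:**
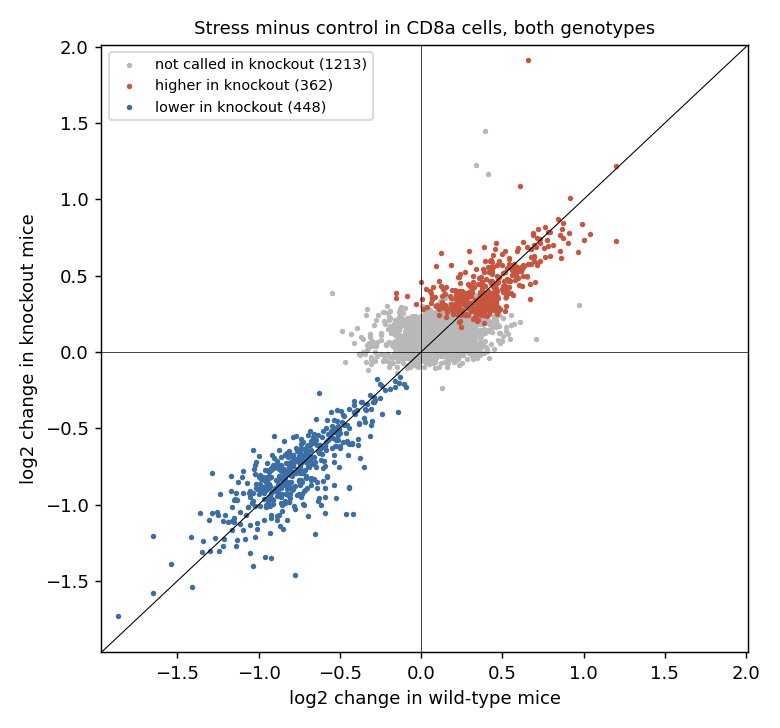
Log2 change, stressed minus control, in CD8a cells of wild-type (x axis) and knockout mice (y axis) for 2023 genes, coloured by the call in the knockout; the diagonal marks equal change. Genes called lower lie in the lower left for both genotypes, and Hbb-bs, at 1.91 in the knockout and 0.66 in wild type, stands furthest above the diagonal.

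CD4 cells of the same mice gave no called difference either. The change of the CD8a minus CD4 value within a mouse called none of 2166 genes (0%, 114 at an unadjusted p under 0.05, limma). Hbb-bs had the smallest p, at 1.91 in CD8a and 0.08 in CD4 cells, and 4 globin genes were called without stressed mouse 2. It was followed by the adaptor Grap (0.21 and -0.25), the chaperones Hsp90ab1 (-0.23 and -0.02) and Dnaja1 (0.16 and 0.47), and Tmed2, a cargo receptor of the secretory pathway (-0.12 and 0.21), all with an adjusted p of 0.76. Without stressed mouse 1, Cd8b1 was called. Ccl5 changed by 1.22 in CD8a and 1.84 in CD4 cells, S100a6 by 0.76 and 0.06, and Cxcr3 by 0.66 and 0.72.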

How the data were processed

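Spleens of 12 mice were profiled as single cells with the 10x Genomics 3' kit, per the labels' protocols, and Cell Ranger 2.1.1 and mm10 are named in the submitters' processing notes. The deposited values are a signal, the average expression per gene and mouse, per the file headers. Cell calling, doublet treatment, the definition of CD8a cells and the rule by which genes were listed are not given in the sources used here. No column was left unused.

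Log2(value + 0.1) was compared with limma 3.58.1 (R 4.3.3, mean-variance trend, two-sided), 3 mice against 3, with Benjamini-Hochberg adjustment over all 2023 listed genes and calls at an adjusted p under 0.05. Folds of low genes are understated on this scale. Errors are SE for log2 changes and SD for levels. The labels number the mice, so p-values measure the spread between mice. Genotypes were compared by an interaction term (12 mice, 2851 genes), cell types by the within-mouse difference (2166 genes), and sums by exact permutation. Code was tested on simulated data. The comparison, its gene lists and the naming rule were chosen with earlier results of these data known. The rule took any member of lists of up to 12 genes, the 5 largest called changes in each direction and 2 not called of longer lists, the 10 largest rises and falls, and the 5 smallest p of each difference test. Genes named beyond it were chosen after their values were seen. A few members are not reported here. Pseudocount, low-value filter, scaling, trend, weights, block, fit over 4 groups and each mouse left out were varied.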

Additional observations from a re-analysis of the deposited data

How the results depend on the processing

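Depth is unknown, so the precision of single averages cannot be judged beyond the spread of 3 mice. The count of genes lower ranged from 413 (lowest 25% of genes left out) to 449 over all alternatives, and that of genes higher was 208 with other listed genes scaled to a common total and 680 with all other transcripts scaled. Leaving out 1 mouse gave 254 to 360 genes higher and 437 to 446 lower. In no alternative was a called gene called in the opposite direction (0 genes). The interaction with genotype called 1 gene with the replicate block and 0 to 1 without single mice. The CD8a minus CD4 difference called 1 gene with the replicate block and 0 to 4 without single mice. The labels do not state that the mouse numbers pair the mice, and 3 mice per group are too few to decide it. Same-numbered mice deviated together with r = 0.25, -0.23 and 0.12, and not every control correlated best with its own number. The replicate block gave 395 genes higher and 449 lower. Changes of genes not called turned direction as follows: with all other transcripts scaled, S1pr4 0.096, Lamp1 0.066 and H2-DMa 0.061; with sample weights, Tsc22d3 -0.099 and Cxcr4 -0.075. Without single mice, Orai1 ranged from -0.047 to 0.18, S1pr4 from -0.15 to 0.017, Tsc22d3 from -0.20 to 0.46 and Cxcr4 from -0.18 to 0.37; the cause was not tested.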

Other observations

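Several smaller gene groups were listed that no comparison above describes. Of 5 GIMAP GTPases, which support lymphocyte survival, Gimap8 (-0.69 ± 0.09) and Gimap3 (-0.48 ± 0.08) fell. Gimap7 rose (0.26 ± 0.10), a call lost without control mouse 1 or 2 or stressed mouse 2 or 3. Of all genes, 22.1% fell and 17.9% rose. Of 4 genes listed under mTOR, PI3K and related kinases, Smg1 (-0.98 ± 0.09), Rictor (-0.83 ± 0.10) and Pik3r1 (-0.69 ± 0.10) fell. Rheb, which activates mTOR complex 1, was not called (0.02 ± 0.12). Ccnd2, a cyclin of entry into the cell cycle, stood at 9.74, 7.7 and 6.68 in the controls and 5.61, 5.57 and 4.53 in the stressed mice (-0.60 ± 0.11). Birc6, a large inhibitor of apoptosis, was the 1 survival gene of 5 that was called (-0.96 ± 0.10), a share near the 22.1% of all genes that fell. Bcl2, given only in other comparisons, stood at 4.35, 3.67 and 4.04 in the controls and 2.66, 3.46 and 3.01 in the stressed mice, lower in every stressed mouse than in any control.

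Of 14 chaperones, Hspa8 (0.50 ± 0.10) and Hspe1 (0.35 ± 0.09) rose, a smaller share than the 17.9% of all genes, and the median of the list was 0.11, as for all genes. Of 18 redox genes, 6 rose, against 17.9% of all genes, led by Gpx4 (0.60 ± 0.15), which removes lipid peroxides. There were 3 calls without control mouse 2 or 3 or stressed mouse 1 or 2. Of 11 genes of translocation into the endoplasmic reticulum, 5 rose, against 17.9% of all genes. These were Dad1, Krtcap2, Ost4, Sec61b and Ssr2, by 0.28 to 0.36, and 3 were called without control mouse 3. Of 8 glycolysis genes, Aldoa (0.31 ± 0.08) and Mif (0.27 ± 0.09) rose, near the share of all genes, with 1 call without control mouse 3 or stressed mouse 3. Of the 2023 genes, 1402 were in no list, of which 177 rose and 276 fell.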
